A study of Mus musculus with 8 samples.

Results

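*Lmx1a*, *Gm29683*, *Gm28258* and *A730049H05Rik* are the 4 transcripts with the largest rise past the thresholds in dentate granule cell (DGC) nuclei of mice whose hippocampus lost a Wnt secretion gene. They are 4 of the 24051 genes in the single-nucleus (snRNAseq) matrices. They were chosen by their fold change and FDR between mutant and control DGC nuclei, so their levels in DGCs are given as a description, and tests were run only on data the choice did not use, which were the other cell types of the same snRNAseq libraries and the bulk RNAseq libraries. Of the bulk tables, which list 46517 genes, 3 of the 4 are listed and *Gm29683* is not.

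All mice were adults of 12 weeks and carried *Gfap-Cre*, a transgene whose Cre recombinase acts in progenitors of the cortex and hippocampus. The mutants were Gfap-Cre;Wlsfl/-, with 1 floxed and 1 null copy of *Wls*, and the controls were Gfap-Cre;Wlsfl/+, so that both groups had 1 floxed copy and only the controls kept a functional copy after recombination. *Wls* encodes the membrane protein that carries Wnts to the cell surface. Each assay used 2 mutant and 2 control mice with 1 library per mouse, made from both hippocampi of a mouse labelled male. Cells without a history of *Gfap-Cre* keep *Wls* in the mutants too, and adult tissue shows the outcome of development as well as the present state.

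Lmx1a is a LIM homeodomain transcription factor that works in the embryonic roof plate and in the cortical hem, a Wnt-producing strip at the edge of the hippocampal field, and in the midbrain it specifies dopamine neurons. The other transcripts have no assigned function that is well established. *Gm29683* and *Gm28258* are long intergenic non-coding RNAs (lincRNAs), a class that is often transcribed in the same cells as a neighbouring transcription factor gene. Both lie beside *Nr2f2*, which encodes the nuclear receptor COUP-TFII, known for its role in interneurons from the caudal ganglionic eminence and in the patterning of the cortex. *A730049H05Rik* lies inside *Adamts9*, which encodes a secreted metalloprotease that cleaves proteoglycans.

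In the GRCm38 annotation (GENCODE vM21), *Gm29683* (ENSMUSG00000109097) covers chr7:70178868-70337852 on the minus strand and *Gm28258* (ENSMUSG00000101559) covers chr7:70372038-70388410 on the same strand. *Nr2f2* (chr7:70351944-70366735, minus strand) lies between them. *Gm28258* ends 5303 bases before the start of *Nr2f2*, and *Gm29683* begins 28.9 kb after that start. *B130024G19Rik* overlaps *Gm28258* on the opposite strand, and *Gm35325* (opposite strand) and *Gm29327* (same strand) overlap *Gm29683*. The bulk library kit keeps the strand, but the use of strand in the counting was not given in the sources used here, so that reads of overlapping transcripts cannot be told apart. *A730049H05Rik* (ENSMUSG00000048636) covers chr6:92816478-92847174 on the plus strand, within *Adamts9* on the minus strand, and is annotated as protein coding by GENCODE. *Lmx1a* (ENSMUSG00000026686) covers chr1:167689237-167848741 on the plus strand, and its nearest neighbour *Rxrg*, a retinoid X receptor gene, ends 49614 bases before it.

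**Figure D1:**
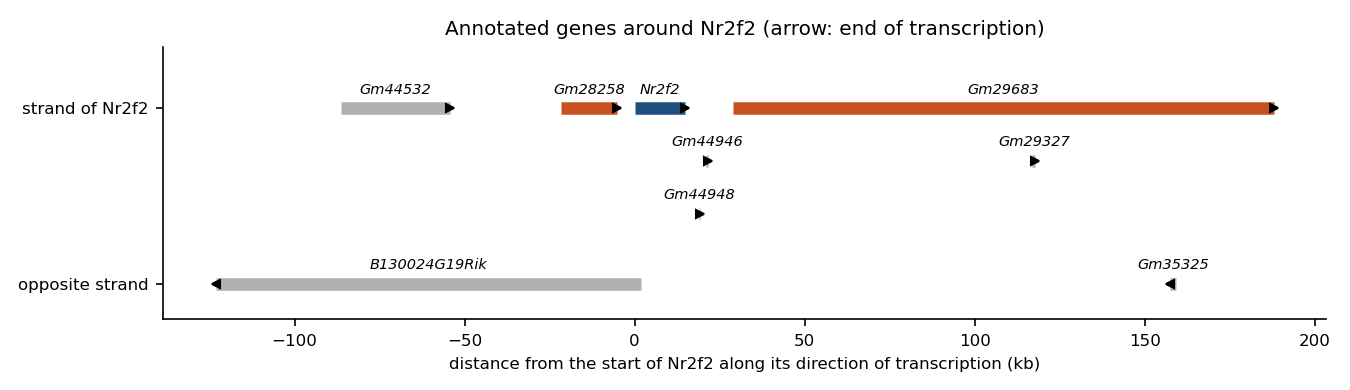
Annotated genes on both sides of *Nr2f2*, placed by their distance in kb from the start of *Nr2f2* along its direction of transcription, with the strand of *Nr2f2* above and the opposite strand below; bars span each gene and arrows mark the end of transcription. *Gm28258* lies before *Nr2f2* and *Gm29683* after it, both in the direction of *Nr2f2*.

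The sequences before the starts of these genes are shown because the study removed Wnt secretion, and TCF/LEF factors, the DNA-binding partners of beta-catenin, recognise the core letters CTTTGAA and CTTTGAT. Windows of 250 bases before to 50 bases after the RefSeq starts (GRCm38.p6) were searched for these letters on both strands, and matches are in capitals. Of 32851 such windows in the RefSeq table, 2842 (8.65%) held at least 1 of the 2 words. The window of *Gm28258* was not used here. The printed lines give the 250 bases before the start, 5′ to 3′ on the strand of the gene, and for the non-coding *Gm29683* also the 50 bases after it. *Gm29683* (chr7:70337773-70338072, minus strand) holds CTTTGAA on the opposite strand, 29 bases after its start, where it reads TTCAAAG. A second RefSeq start of *Gm29683* has its window at chr7:70337803-70338102, which held no match. *Nr2f2* (chr7:70366747-70366996, minus strand) holds CTTTGAT 114 bases before its start. No match lay in the windows of *Lmx1a* (chr1:167689308-167689557, plus strand) and *A730049H05Rik* (chr6:92816193-92816442, plus strand). The RefSeq start of *Lmx1a* lies after the GENCODE start given above, so that its window is inside the gene as GENCODE annotates it. The sequence before the GENCODE start of *Lmx1a* was not searched.
Gm29683: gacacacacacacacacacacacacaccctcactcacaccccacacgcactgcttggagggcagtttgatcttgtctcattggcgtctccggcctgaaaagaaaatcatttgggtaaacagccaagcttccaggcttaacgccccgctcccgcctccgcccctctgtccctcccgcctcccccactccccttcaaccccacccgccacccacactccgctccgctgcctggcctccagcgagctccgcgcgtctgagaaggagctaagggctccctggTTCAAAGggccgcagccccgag
Nr2f2: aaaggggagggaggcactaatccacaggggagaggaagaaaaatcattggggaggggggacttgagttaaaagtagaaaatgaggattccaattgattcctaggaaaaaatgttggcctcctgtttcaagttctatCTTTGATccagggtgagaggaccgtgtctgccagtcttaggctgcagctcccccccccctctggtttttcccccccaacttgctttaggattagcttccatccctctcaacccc
Lmx1a: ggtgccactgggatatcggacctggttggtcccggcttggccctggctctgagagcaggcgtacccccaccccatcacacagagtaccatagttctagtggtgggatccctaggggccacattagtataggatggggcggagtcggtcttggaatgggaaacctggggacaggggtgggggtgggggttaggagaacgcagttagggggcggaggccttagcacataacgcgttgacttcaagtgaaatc
A730049H05Rik: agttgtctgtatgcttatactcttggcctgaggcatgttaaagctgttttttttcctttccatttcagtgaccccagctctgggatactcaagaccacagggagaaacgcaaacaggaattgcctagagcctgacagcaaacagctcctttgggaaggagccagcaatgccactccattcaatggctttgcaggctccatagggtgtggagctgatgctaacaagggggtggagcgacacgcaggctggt

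The snRNAseq libraries held 5304 and 10460 nuclei in mutant replicates 1 and 2 and 6469 and 7192 in control replicates 1 and 2, and each pair of libraries shared between 8 and 21 cell barcodes, at most 0.309% of the smaller library. DGC nuclei numbered 90 and 463 in the mutants and 2336 and 2007 in the controls. The 8 DGC markers fixed for the check (*Prox1*, *Dsp*, *C1ql2*, *Calb1* and others) summed to 749 and 755 UMIs per 1000000 UMIs of the cell type (UPM) in the mutant DGC nuclei and to 801 and 824 UPM in the control ones, with a UMI of all 8 in every library, against at most 274 UPM in any other type (oligodendrocytes). *Wls* in mutant DGC nuclei was at 4.78 and 5.64 CPM (counts per 1000000 after scaling of the libraries), on 2 and 19 UMIs. In control DGC nuclei it was at 3.33 and 4.45 CPM, on 38 and 72 UMIs. With 2 UMIs, mutant replicate 1 does not show whether *Wls* was higher or lower there. Whether mutant DGCs kept *Wls* was not tested. In astrocytes *Wls* was at 2.91 and 2.08 CPM in the mutants against 49.9 and 39.6 CPM in the controls. Bulk *Wls* was at 3.67 and 6.86 CPM in the mutants and 13.2 and 13.0 CPM in the controls. The bulk libraries held 59786165 and 79576196 expected counts in the mutants and 56002381 and 66684515 in the controls. In bulk RNAseq, replicate 2 of both genotypes went against the male label, with 18301 (mutant) and 34766 (control) expected counts of *Xist*, the RNA that silences an X chromosome in females, against 85.1 and 58.6 in replicate 1, and with 28.0 and 22.9 of the Y-linked *Ddx3y* against 3205 and 3289.

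All 4 transcripts were higher in DGC nuclei of both mutants than in both controls, from a very low control level. They took ranks 1 to 4 among the 124 genes that rose past FC >2 and an FDR below 0.05 (edgeR, adjusted by the method of Benjamini and Hochberg over all genes of the fit), which is 0.827% of the 15003 genes tested, while 0.64% fell. This contrast chose them, and nothing is read from the count. Just outside, *Slco1a4* (log2 fold change 3.08) did not pass the FDR and *Trhr* (3.04) did, next to 3.17 for *Lmx1a*, the lowest of the 4.

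*Gm29683* was the most abundant of the 4 in DGCs by UMIs. It had 6 and 113 UMIs in mutant replicates 1 and 2, or 14.5 and 33.0 UPM, and 10 and 44 UMIs in control replicates 1 and 2, or 0.879 and 2.71 UPM. The 95% Poisson intervals, which cover counting error only, were 5.32 to 31.5 and 27.2 to 39.7 UPM in the mutants and 0.422 to 1.62 and 1.97 to 3.63 UPM in the controls, and the mutant intervals did not overlap those of the controls. The fitted rise was 14.9-fold (log2 FC 3.90, SE 0.493), with a log2 FC of 2.91 without mutant replicate 2 and 5.01 without control replicate 2.

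*Gm28258*, on the other side of *Nr2f2*, had 2 and 23 UMIs in the mutants (4.83 and 6.71 UPM) and 2 and 13 in the controls (0.176 and 0.799 UPM). The fitted rise was 11.9-fold (log2 FC 3.57, SE 0.662). The 2 UMIs of mutant replicate 1 have an interval of 0.585 to 17.4 UPM, which reaches the level of control replicate 2. Leaving out 1 library gave a log2 FC of 2.97 without control replicate 1 and 5.03 without control replicate 2.

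*A730049H05Rik* had 1 and 51 UMIs in the mutants (2.41 and 14.9 UPM) and 9 and 28 in the controls (0.791 and 1.72 UPM), a fitted rise of 9.30-fold (log2 FC 3.22, SE 0.557). Its level in mutant replicate 1 rests on a single UMI, with an interval of 0.0611 to 13.5 UPM that spans both controls. The log2 FC was 0.85 without mutant replicate 2 and 3.98 without control replicate 2.

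*Lmx1a* had 2 and 21 UMIs in the mutants (4.83 and 6.13 UPM) and 6 and 12 in the controls (0.528 and 0.738 UPM). The fitted rise was 9.03-fold (log2 FC 3.17, SE 0.538). Both UMIs of mutant replicate 1 came from the same nucleus, and the 21 UMIs of mutant replicate 2 from 18 nuclei. At 414115 DGC UMIs in mutant replicate 1, a count of 0 allows a level of up to 7.24 UPM, above the values of 3 of the 4 transcripts there.

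**Figure D2:**
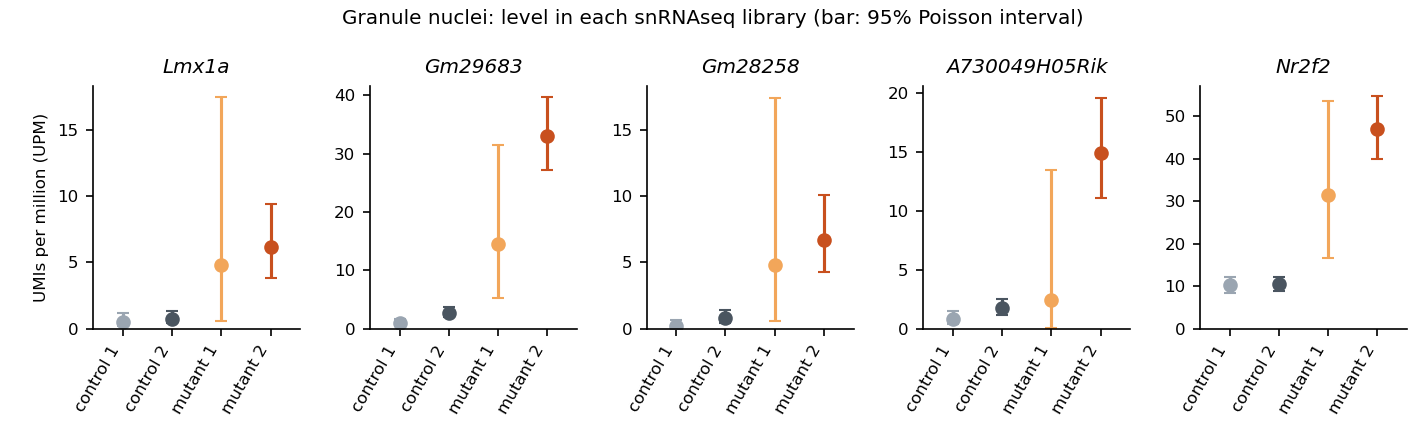
Level of the 4 transcripts and *Nr2f2* in DGC nuclei in UPM (vertical axis, a separate scale per gene) in each of the 4 snRNAseq libraries; points are library values and bars their 95% Poisson intervals. Mutant points lie above control points in every panel, and the intervals of mutant replicate 1 are wide, since that library has 90 DGC nuclei.

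Few DGC nuclei carried any of these transcripts. At least 1 of the 4 was found in 7 of 90 and 141 of 463 mutant nuclei (7.78% and 30.5%) and in 26 of 2336 and 70 of 2007 control nuclei (1.11% and 3.49%). A UMI of at least 2 of the 4 was found in 1 and 22 mutant nuclei and in 0 and 8 control nuclei. *Gm29683* was found in 4.44% and 17.7% of mutant nuclei (exact binomial 95% intervals 1.22 to 11.0% and 14.3 to 21.5%) and in 0.385% and 1.4% of control nuclei (0.176 to 0.730% and 0.929 to 2.01%). The transcripts were found in a minority of nuclei in both genotypes at this depth.

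Depth per nucleus differed between the libraries, with medians of 4241.5 and 7126 UMIs in mutant DGCs and 4628 and 7688 in control DGCs. After each nucleus was thinned to 1500 UMIs, *Gm29683* remained in 3.33% and 4.10% of mutant and in 0.0856% and 0.249% of control nuclei. *A730049H05Rik* overlapped between the genotypes at full depth, in 1.11% and 9.5% of mutant and 0.385% and 1.35% of control nuclei, and after thinning was in 1.11% and 1.94% against 0.0856% and 0.249%, where the share in mutant replicate 1 is 1 nucleus at both depths. *Lmx1a* (0 and 0.432% against 0.128% and 0.0997%) and *Gm28258* (0 and 1.73% against 0 and 0.0997%) could not be compared at that depth in mutant replicate 1. Microglia were taken as a background type, and whether they lack these transcripts was not tested. Their 3 astrocyte markers summed to 2415 to 4229 UPM, against 3547 to 4602 UPM in astrocytes. *Gm29683* was in 0 of 13 and 2 of 332 microglia of the mutants (0 and 0.602%). In the controls it was in 0 of 105 and 2 of 287 (0 and 0.697%). Median UMIs of these microglia were 1701, 1958, 1632 and 2434. The other 3 transcripts had no UMI in microglia of any library. Thinned in the same way, microglia held *Gm29683* in 0 and 0.301% of mutant and 0 and 0.697% of control nuclei. The thinned shares in control DGCs lay within that range, which rests on few microglia with a UMI. The part of free RNA in the control shares was not tested. With 13 microglia, mutant replicate 1 gives no usable background level, and the part of free RNA in the mutant shares was not tested.

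The gene between the lincRNAs moved with them. *Nr2f2* in DGC nuclei was at 31.4 and 47.0 UPM in the mutants and 10.2 and 10.5 UPM in the controls (log2 FC 2.06, SE 0.242), and *Adamts9*, around *A730049H05Rik*, was at 38.3 and 47.5 CPM against 9.83 and 11.1 CPM (log2 FC 2.10, SE 0.227). *Gm15737*, the next gene along from *A730049H05Rik*, was at 2.39 and 3.86 CPM against 0.264 and 0.994. The outer neighbours differed less. *Prickle2*, a planar polarity gene, was at 536 and 546 CPM in the mutants and 431 and 428 CPM in the controls, and *Rxrg*, beside *Lmx1a*, at 0 and 1.49 against 0.702 and 1.42 CPM. These values belong to the contrast that chose the transcripts and are given with no test.

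Within DGC nuclei of a library, *Gm29683* was found more often where *Nr2f2* was found as well. In mutant replicate 2 it was in 25.8% of 120 nuclei with a UMI of *Nr2f2* and in 14.9% of 343 without, and in control replicate 2 in 6.21% of 145 and 1.02% of 1862. In control replicate 1 the shares were 1.98% of 101 and 0.313% of 2235. In mutant replicate 1 it was in 1 of 13 nuclei with *Nr2f2* and in 3 of 77 without. After thinning to 1500 UMIs the shares were 15.4% and 3.43% in mutant replicate 2 and 2.56% and 0.203% in control replicate 2. Thinning left far fewer nuclei with *Nr2f2* than the 120 and 145 above, so that the thinned shares with *Nr2f2* rest on few nuclei. Nuclei with more UMIs can carry more of both transcripts, and nuclei of a library are no replicates, so these shares are a description. The shares without *Nr2f2* were also higher in the mutants. *Gm28258* had the same order, in 9.17% and 2.62% of these nuclei in mutant replicate 2 and 3.45% and 0.376% in control replicate 2. *Lmx1a* had the opposite order in mutant replicate 2 (0.833% with *Nr2f2* and 4.96% without) and control replicate 2 (0 and 0.644%), but not in control replicate 1, where it was in 2 of 101 and 4 of 2235 nuclei.

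Markers of other cell types were compared in the same DGC nuclei. The 3 astrocyte markers (*Aqp4*, *Gja1*, *Slc1a3*) summed to 79.7 and 74.7 UPM in the mutants and 63.5 and 66.7 UPM in the controls, and the 3 microglial markers (*Cx3cr1*, *Csf1r*, *P2ry12*) to 91.8 and 100.1 UPM against 62.2 and 74.7 UPM. The 5 Cajal-Retzius markers (*Reln*, *Trp73* and others) summed to 12.1 and 20.7 UPM against 11.5 and 11.5 UPM. All 3 of these sums were higher in both mutants. So was that of the 3 oligodendrocyte markers, at 154.5 and 167.3 UPM against 151.8 and 140.8 UPM. In mutant replicate 1 the astrocyte sum came from 1 of 3 genes and the Cajal-Retzius sum from 3 of 5. The median over the astrocyte markers was lower in both mutants (0 and 2.92 UPM against 4.75 and 3.32 UPM). The same held for the oligodendrocyte median (43.5 and 45.0 UPM against 57.8 and 46.5 UPM). The microglial median was higher in both mutants (26.6 and 28.0 UPM against 15.6 and 18.6 UPM). So was the Cajal-Retzius median (2.41 and 2.63 UPM against 2.11 and 1.35 UPM). The sum of the 4 immature granule cell markers (*Dcx*, *Sox11* and others) was lower in both mutants. It was 31.4 and 30.7 UPM against 52.8 and 48.0 UPM. The 4 GABA neuron markers overlapped between the genotypes (82.1 and 96.3 UPM against 88.8 and 77.2 UPM), and the 3 mossy cell markers were at most 2.34 UPM in any library. With a UMI of *Prox1* required, the 4 transcripts kept 2, 6, 1 and 1 UMIs of *Lmx1a*, *Gm29683*, *Gm28258* and *A730049H05Rik* in mutant replicate 1 and 15, 100, 16 and 49 in mutant replicate 2. These counts are of the nuclei that chose the transcripts. The part of other cells' RNA in the rises was not tested.

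DGCs differ along the long axis of the hippocampus, and markers of its ends differed between the genotypes. *Trhr*, the thyrotropin-releasing hormone receptor used by the study as a ventral marker, was at 60.4 and 56.9 UPM in mutant DGCs and 6.68 and 7.44 UPM in control DGCs. *Lct*, which encodes lactase and marks dorsal DGCs, was at 12.1 and 9.34 UPM against 25.1 and 28.1 UPM. Nuclei with *Trhr* and no *Lct* made up 20.0% and 29.8% of mutant DGCs and 2.61% and 4.09% of control DGCs.

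These markers set apart 3 groups of DGC nuclei in each library. *Gm29683* in mutant replicate 2 was at 44.6 UPM in the 138 nuclei with *Trhr* and no *Lct*, 30.1 UPM in the 297 nuclei with neither and 0 UPM in the 19 nuclei with *Lct* and no *Trhr*. In control replicate 2 it was at 7.68, 2.93 and 0.321 UPM in 82, 1564 and 352 nuclei. *Gm29683* was thus highest with *Trhr* in replicate 2 of both genotypes, and within nuclei of the same marker class the mutant value was above the control value for *Trhr* (10.9 and 44.6 UPM against 2.58 and 7.68 UPM) and for neither marker (17.1 and 30.1 UPM against 0.831 and 2.93 UPM). The 10.9 UPM of mutant replicate 1 is a single UMI in 18 nuclei. Nuclei with neither marker made up 74.4% and 64.1% of mutant and 86.3% and 77.9% of control DGCs. Such a nucleus can still be ventral or dorsal, so a class does not fix the position on the long axis between the genotypes. These values also belong to the contrast that chose the transcript, and no conclusion is drawn from them.

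*Gm28258* was ordered in the same way, at 10.9, 5.26 and 0 UPM in mutant replicate 2 and 2.56, 0.652 and 0.321 UPM in control replicate 2. *A730049H05Rik* was at 22.7, 11.5 and 6.65 UPM in mutant replicate 2 and 7.68, 1.47 and 0.962 UPM in control replicate 2. *Lmx1a* went the other way in these libraries. It was at 2.73 UPM in nuclei with *Trhr*, 5.74 UPM with neither marker and 33.3 UPM in nuclei with *Lct* in mutant replicate 2, where the last value is 5 UMIs in 4 of 19 nuclei, and at 0, 0.570 and 1.60 UPM in control replicate 2. Both *Lmx1a* UMIs of mutant replicate 1 were in a nucleus with *Lct*. The numbers are small, and after thinning none of the 4 was higher in nuclei with *Trhr* than in those with *Lct* in replicate 2 of both genotypes.

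**Figure D3:**
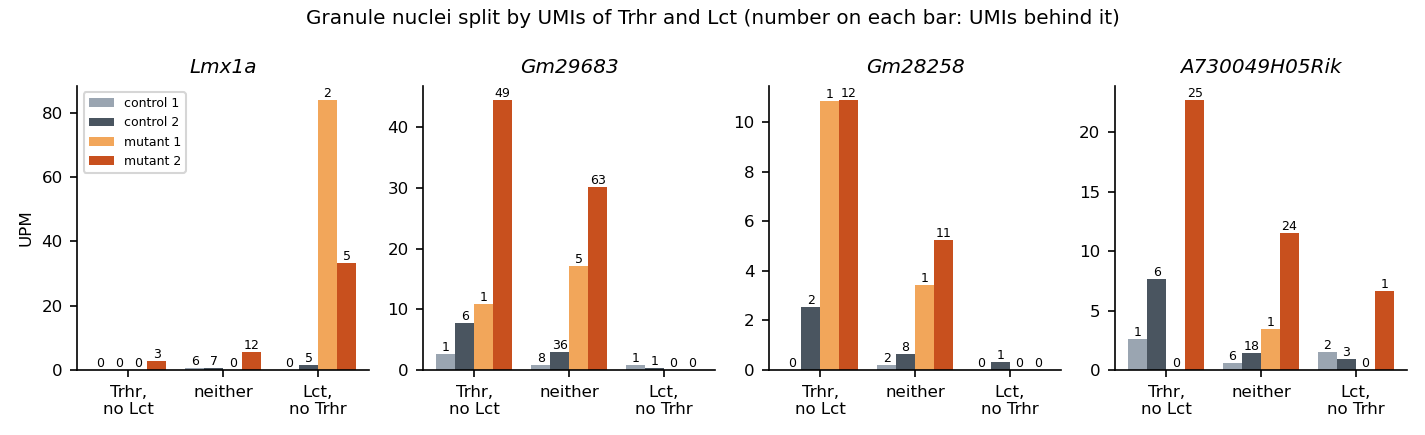
Level in UPM (UMIs per 1000000, vertical axis, a separate scale per gene) in DGC nuclei with a UMI of *Trhr* and no *Lct*, of neither, and of *Lct* and no *Trhr*; bars are library values with the UMIs behind each printed on top, and no error is drawn. *Gm29683*, *Gm28258* and *A730049H05Rik* are highest in nuclei with *Trhr* in mutant replicate 2 and control replicate 2, and *Lmx1a* in nuclei with *Lct*, on 5 UMIs in each of these libraries.

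Outside DGCs the 4 transcripts had cell type patterns of their own, given here in the controls, where each type has up to 2 libraries. *Lmx1a* belonged to the choroid plexus (CP) nuclei, the epithelium that makes cerebrospinal fluid. It was at 319 UPM in the 9 CP nuclei of control replicate 1 and at 339 UPM in the 184 of mutant replicate 2, and the other libraries had no CP nuclei. In every other control type its mean was at most 3.55 UPM. That value is of the cluster named excitatory neurons 13 (3.1 and 3.99 UPM) and was followed by astrocytes (3.58 and 2.91 UPM), 2 neighbours whose ranges overlap. *Lmx1a* had no UMI in any library in 4 of the 21 types.

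*Gm29683* was highest in small clusters. It was at 402 and 137 UPM in the cluster named excitatory neurons 19, at 226 and 224 UPM in inhibtory neurons 14 (spelling as deposited), at 117 UPM in CP (1 library), at 109 and 42.1 UPM in inhibtory neurons 18, at 63.6 UPM in EC (1 library of 9 nuclei) and at 28.8 and 34.9 UPM in inhibtory neurons 5. The ranges of excitatory neurons 19 and inhibtory neurons 14 overlap, as do those of inhibtory neurons 18 and EC, and those of the other neighbours in this order do not. The label of inhibtory neurons 14 went against the markers, since its 4 GABA neuron markers summed to 276 to 367 UPM, below the 418 to 556 UPM of astrocytes and far below the 1917 to 2105 UPM of inhibtory neurons 12. The astrocyte markers of excitatory neurons 19 summed to 435 to 1046 UPM, against at most 110.7 UPM in the other excitatory clusters (excitatory neurons 10). Its control *Wls* (501 and 491 CPM) was near that of inhibtory neurons 14 (542 and 508 CPM). Whether its nuclei are excitatory neurons was not tested. *Gm28258* was led by inhibtory neurons 14 (17.1 and 22.0 UPM) and inhibtory neurons 18 (15.5 and 18.7 UPM), which overlap in range, with EC between them at 18.2 UPM in 1 library, followed by mossy cells (4.87 and 12.7 UPM) and inhibtory neurons 5 (6.78 and 9.09 UPM), which overlap too. *A730049H05Rik* was led by inhibtory neurons 14 (21.3 and 5.99 UPM), astrocytes (9.83 and 16.5 UPM) and CA3 pyramidal cells (5.70 and 13.4 UPM), whose ranges all overlap. DGCs came in place 13 of the 21 types for *Lmx1a*, 15 for *Gm29683*, 14 for *Gm28258* and 9 for *A730049H05Rik* by the mean control level.

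The genes most like each transcript were sought over 36 control values (18 types in 2 libraries), by the Pearson correlation of log2(UPM + 1) among 18106 genes. The points share libraries and depth, and r is a description. For *Gm29683* they were *Nr2f2* (r = 0.862), *Coch* (0.828) and *Fmo1* (0.818). For *Gm28258* they were *Nr2f2* (r = 0.798), *Gm29683* (0.735) and *Col26a1* (0.711), so that *Nr2f2* came first for both lincRNAs beside it. For *A730049H05Rik* they were *Adamts9* (r = 0.745), the gene that surrounds it, *Loxl1* (0.703) and *Rhbdf1* (0.685). *Lmx1a* never passed 3.99 UPM in these types, and its leading genes, *Gm42707* (r = 0.667), *Ccl5* (0.648) and *Aldh1b1* (0.632), rest on few UMIs. Between *Lmx1a* and the other 3 transcripts r lay between -0.17 and 0.14.

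**Figure D4:**
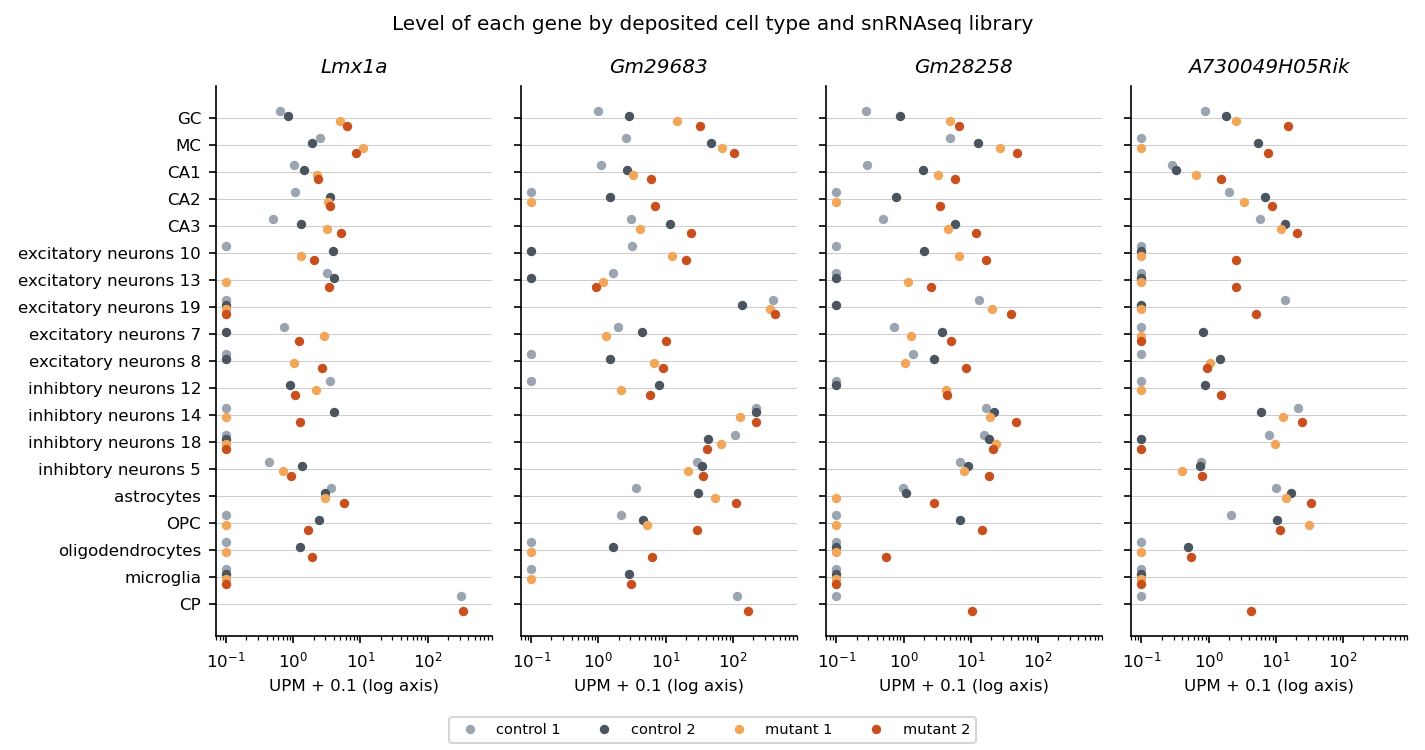
Level of each transcript by deposited cell type and library, as UPM + 0.1 on a log axis, so that a level of 0 stands at 0.1; points are library values. The mutant points lie to the right of the control points in DGCs (GC) for all 4, *Lmx1a* stands far to the right in CP, and *Gm29683* in excitatory neurons 19 and inhibtory neurons 14, and the clusters EC and inhibtory neurons 15 are not drawn.

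The genotypes were compared in the 17 other types with at least 10 nuclei in every library, by edgeR with the FDR taken over all genes of a type. Only 17 of the 68 pairs of transcript and type had enough UMIs to be tested. Of these, 1 rose at FC >2 and FDR below 0.05 and 0 fell, against 0.0359% of all tests called higher and 0.0395% called lower over these types. At an unadjusted p below 0.05 there were 9 higher and 0 lower, against 4.2% and 4.5% of all tests, and DESeq2 called 0. The log2 FC was above 0 in 14 of the 17. In 8 both mutant libraries were above both controls and in 0 below them, against 19.7% and 20.2% of all tests. A transcript can pass the filter because it is high in the mutants, so none of these counts is support for a rise. These types share their libraries with each other and with the DGCs.

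*Gm29683* rose in astrocytes, where 0.131% of the 11482 genes tested did. It had 19 and 280 UMIs in the mutants (54.4 and 111 UPM) and 4 and 63 in the controls (3.58 and 30.6 UPM), and the groups did not overlap. The log2 FC was 2.28 (SE 0.443, edgeR FDR 0.0259). The controls differed between themselves by a larger factor than the mutants did. The call was lost without mutant replicate 2 (log2 FC 1.5, edgeR FDR 0.601), without control replicate 1 (log2 FC 1.62, edgeR FDR 0.879) and without control replicate 2 (log2 FC 4.75, edgeR FDR 0.315), and DESeq2 gave no adjusted p. *Nr2f2* in astrocytes was at 58.2 and 70.6 CPM in the mutants and 28.9 and 46.0 CPM in the controls, with an edgeR FDR of 0.231.

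In mossy cells, the hilar targets of DGCs, *Gm28258* was at 26.8 and 49.3 UPM in the mutants and 4.87 and 12.7 UPM in the controls (log2 FC 2.21, SE 0.545), with an edgeR FDR of 0.0942. *Gm29683* there was at 69.7 and 105 UPM against 2.43 and 47.0 UPM (log2 FC 1.81, SE 0.544, edgeR FDR 0.195). In both cases the mutants lay above the controls without passing the threshold, and both passed it without control replicate 2 (log2 FC 3.1 for *Gm28258* and 5.15 for *Gm29683*). *Trhr* was also higher in mossy cells of both mutants, at 40.6 and 30.9 CPM against 2.58 and 11.4 CPM, and its part in these values was not tested. In CA3, *Lmx1a* was at 3.06 and 4.97 UPM against 0.393 and 1.19 UPM (log2 FC 2.30, SE 0.532, edgeR FDR 0.185), and the groups did not overlap either. It passed without mutant replicate 1 (log2 FC 2.49) or control replicate 2 (log2 FC 3.40). Its neighbour *Rxrg* was at 8.75 and 5.75 CPM against 1.19 and 2.01 CPM in the same nuclei (log2 FC 2.02, SE 0.423, edgeR FDR 0.165), and *Trhr* at 1.75 and 7.79 CPM against 0.399 and 0.844 CPM. *A730049H05Rik* in CA3 was at 11.9 and 20.9 UPM against 5.70 and 13.4 UPM, with overlapping groups (log2 FC 0.82, SE 0.383).

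The cell types in which *Gm29683* was high in the controls gave other values. In inhibtory neurons 5 it was at 21.3 and 36.3 UPM in the mutants and 28.8 and 34.9 UPM in the controls (log2 FC -0.08, SE 0.256), in inhibtory neurons 14 the log2 FC was -0.24 (SE 0.307), in inhibtory neurons 18 it was -0.43 (SE 0.493) and in excitatory neurons 19 it was 0.64 (SE 0.523). The groups overlapped in all 4. In excitatory neurons 10 it was at 12.4 and 20.2 UPM in the mutants and 3.03 and 0 UPM in the controls (log2 FC 3.31, SE 0.801), with an edgeR FDR of 0.256. Whether the change differs between these types was not tested.

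CA1 pyramidal cells had more mutant nuclei than DGCs, with 1547 and 2677. *Lmx1a* had 20 and 58 UMIs in the mutants (2.19 and 2.2 UPM) and 10 and 23 in the controls (0.913 and 1.33 UPM), *Gm29683* 3.18 and 5.98 against 1.00 and 2.61 UPM, and *Gm28258* 3.18 and 5.79 against 0.183 and 1.86 UPM. In all 3 both mutants were above both controls, and the edgeR FDR lay between 0.421 and 0.490. *Gm44532*, a further lincRNA upstream on the strand of *Nr2f2*, was at 1.86 and 2.98 CPM against 0.283 and 0.795 CPM in CA1 and at 3.15 and 7.06 CPM against 0.598 and 1.79 CPM in CA3. Of its 3 tests in other types 0 passed the thresholds in edgeR. In 2 of them, CA1 and CA3, the unadjusted p was below 0.05 and the mutants were higher, beside 4.2% of all tests.

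In whole tissue, where more or fewer cells of a type and more or less RNA per cell cannot be told apart, *Lmx1a* was higher in both mutants. Bulk RNAseq gave 71.0 and 358 expected counts in mutant replicates 1 and 2 and 7 and 16 in control replicates 1 and 2, or 1.21 and 4.50 CPM against 0.124 and 0.238 CPM. The fitted difference was 15.5-fold (log2 FC 3.95, SE 0.772), with an edgeR FDR of 0.0969. Of the 2 transcripts tested, edgeR called 0 higher, against 0.0193% of the 20687 genes tested, and DESeq2 called *Lmx1a*, against 0.334% of all genes. In both transcripts the 2 mutants were above the 2 controls, against 25.8% of all genes. The call depended on the tool and the libraries. DESeq2 gave an FDR of 3.74e-06, and edgeR called it without mutant replicate 1 (log2 FC 4.59, FDR 7.12e-04) or without mutant replicate 2 (log2 FC 2.69, FDR 0.0467), while without control replicate 1 or control replicate 2 the edgeR FDR was 0.376 and 0.484.

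CP transcripts were higher beside *Lmx1a* in bulk RNAseq, and their part in its difference was not tested. *Ttr*, the transthyretin transcript of CP, had 37370 and 394733 expected counts in the mutants and 4787 and 2135 in the controls. Of the 17 listed CP markers edgeR called 0 at FC >3 and FDR below 0.05, DESeq2 called 14 higher, and 16 had an unadjusted p below 0.05 in edgeR, all of them higher, against 8.86% of all genes higher and 9.94% lower at that p, with a median log2 fold change of 4.26 over the list, against 0.01 over all genes. *Lmx1a* had 1.90 and 0.907 counts per 1000 of *Ttr* in the mutants and 1.46 and 7.49 in the controls.

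In snRNAseq the CP markers of DGC nuclei did not follow genotype in the same way. Their sum was 26.6 and 87.6 UPM in the mutants, with 6 and 12 of 17 detected, and 59.5 and 39.3 UPM in the controls, with 15 and 14 of 17. *Ttr* alone was at 2.41 and 44.4 UPM against 29.6 and 5.90 UPM. In mutant replicate 2, the ratio of *Lmx1a* to *Ttr* UMIs was 0.0490 in CP nuclei, 0.138 in DGCs, 0.0461 in CA1, 0.158 in CA3 and 0.00718 in oligodendrocytes. In mutant replicate 1, which had no CP nuclei, CA1 nuclei held 20 UMIs of *Lmx1a* and 7 of *Ttr*. With only the DGC nuclei that had no UMI of *Ttr*, 2 of 2 and 16 of 21 *Lmx1a* UMIs of the mutants and 4 of 6 and 10 of 12 of the controls remained, a description of the nuclei that chose the transcript.

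*A730049H05Rik* was low in bulk RNAseq, with 26.6 and 25.3 expected counts in the mutants and 16.9 and 11.3 in the controls (0.459 and 0.314 against 0.301 and 0.164 CPM). The log2 FC was 0.73 (SE 0.508, edgeR FDR 0.506). Both mutants lay above both controls, an order that 25.8% of all genes had, and the thresholds were not passed. *Gm28258* had 8.87 and 2.00 expected counts against 5.00 and 2.00 and was removed by the filter on low counts. *Nr2f2*, at 38.7 and 34.5 against 31.9 and 29.0 CPM, had a log2 FC of 0.26 (SE 0.091, edgeR FDR 0.220), and *Adamts9* one of 0.31 (SE 0.159, edgeR FDR 0.371).

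**Figure D5:**
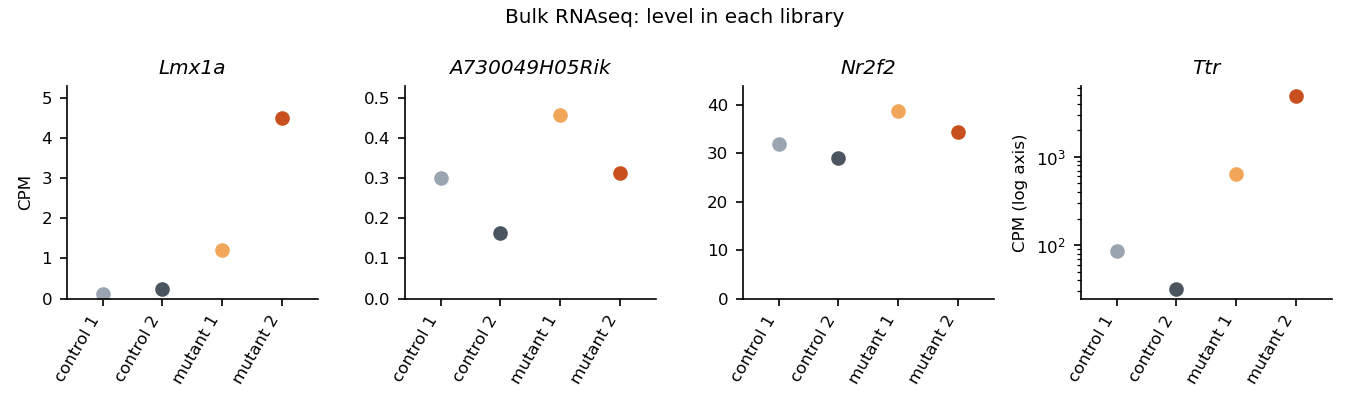
Level in CPM (vertical axis, from 0 except for *Ttr*, which is on a log axis) in each of the 4 bulk RNAseq libraries; points are library values. *Lmx1a* and *Ttr* are higher in both mutant libraries, highest in mutant replicate 2, and *A730049H05Rik* lies between 0.164 and 0.459 CPM, and *Nr2f2* between 29.0 and 38.7 CPM.

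Few genes related to *Lmx1a* passed a threshold. Of 21 LIM homeodomain genes, LIM-only genes and their cofactors, 16 could be tested in bulk RNAseq and edgeR and DESeq2 called 0 in either direction, where edgeR called 0.198% of all genes lower, with 3 higher and 3 lower at an unadjusted p below 0.05, beside 8.86% and 9.94% of all genes, and a median log2 fold change of -0.04. In DGC nuclei 13 could be compared. Of these, 1 rose and 0 fell, beside 0.827% and 0.64% of all genes of that fit. It was *Ldb2*, which encodes a protein that bridges LIM domains. *Ldb2* was at 31.1 and 38.3 CPM in the mutants and 14.6 and 15.5 CPM in the controls (log2 FC 1.27). This was not particular to DGCs. Both mutants were also above both controls in mossy cells (log2 FC 1.28, edgeR FDR 0.0687), CA3 (log2 FC 1.04, edgeR FDR 0.154) and further types. In others, such as CA2, the groups overlapped. The median over the list was 0.01, against -0.01 over all genes of that fit.

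Of 20 genes of the cortical hem and roof plate, 19 could be tested in bulk RNAseq. EdgeR called 0 and DESeq2 1 (*Otx2*), beside 0.334% of all genes called higher by DESeq2. At an unadjusted p below 0.05, 3 were higher and 2 lower, beside 8.86% and 9.94% of all genes, and the median log2 fold change was 0.13. The largest was that of *Otx2*, a homeodomain gene that CP also uses, at 5.20 and 23.7 CPM in the mutants and 1.91 and 1.06 CPM in the controls (log2 fold change 3.29, edgeR FDR 0.125), and *Msx1* was at 7.17 and 22.2 against 4.77 and 3.26 CPM. *Axin2*, a feedback target of Wnt signalling, was at 16.8 and 21.0 against 28.0 and 28.5 CPM (log2 fold change -0.58, edgeR FDR 0.110). In DGC nuclei 11 could be compared and 0 passed, with a median of 0.23.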

How the data were processed

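Libraries of 2 mutant and 2 control mice per assay were assigned to genotypes from their labels. Where nothing says more, p-values measure the spread between these samples. Per the labels and methods, the authors aligned bulk reads to mm10 with RSEM (1.3.0) and Bowtie2 (2.2.9) and deposited expected counts per gene, with TPM and FPKM values that were not used here, and a matrix of signal (expected counts over a size factor per library). For snRNAseq they used Cell Ranger (3.1.0) with a pre-mRNA index and deposited UMI counts per nucleus, a size factor (a ratio, not used) and a cell type. The authors' alignment shares reads among genes, and their cell calling, clustering and annotation set which nuclei are DGCs.

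Expected counts were rounded to whole numbers. UMIs were summed per library and cell type. Both were compared with edgeR (4.0.16, R 4.3.3; glmQLFit, glmQLFTest, filterByExpr, TMM) at FC >3 (bulk) or FC >2 (snRNAseq) and FDR (Benjamini-Hochberg) below 0.05, with no covariates. The SE of a log2 FC is its absolute value divided by the square root of the F statistic. CPM values are after TMM, UPM values are UMIs over all UMIs of the type. Shares were also computed after thinning to 1500 UMIs, and a count of 0 was given a limit of 3 counts. Intervals are exact at 95% and cover counting error only, and the number of UMIs of DGCs, lowest in mutant replicate 1, sets the precision. Doublets were not removed beyond the authors' filters. For single values, exact permutation (two-sided) of these libraries has 0.333 as its smallest p.

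The 4 transcripts and the gene lists were chosen with earlier results of these data known. Genes named are the 4, list members past a threshold or at its edge, overlapping and nearest genes, and the 3 most like genes (at least 5 UPM in 1 control sum). *Slco1a4*, *Trhr*, *Otx2*, *Msx1* and *Axin2* were added after their values were seen. Alternatives were RLE, no filter, DESeq2 (1.42.0), the replicate number as a block, each library left out, limma (3.58.1) on log2 of the deposited matrix with 1 added, and selections of nuclei. The tests were first tested on simulated counts. Tables and intervals were computed with pandas 2.3.3, scipy 1.17.1 and numpy 2.4.6.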

Additional observations from a re-analysis of the deposited data

Results flagged for a closer look

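*Nr2f2*, which lies between *Gm28258* and *Gm29683*, lay on opposite sides of the controls in different cell types. Both mutant libraries were above both controls in 5 types (DGCs, CA2, CA3, astrocytes and excitatory neurons 8) and below both controls in 4 types, which were the 4 fitted clusters named inhibtory neurons. The DGC contrast chose the transcripts beside it, and without it 4 of 15 types were above and 4 of 15 below, against 19.7% and 20.2% of all tests in other types. In inhibtory neurons 5 it was at 59.7 and 73.6 UPM in the mutants and 94.9 and 94.9 UPM in the controls (log2 FC -0.47, SE 0.161). Of the 15 other types tested, 0 passed FC >2 and FDR below 0.05 in edgeR and DESeq2 called 0. In 7 the unadjusted p in edgeR was below 0.05, beside 4.2% of all tests higher and 4.5% lower at that p. *Nr2f2* was higher in CA2, CA3, OPC, astrocytes and excitatory neurons 8 among these, and lower in inhibtory neurons 5 and 18. The difference between the types was not tested. The cluster inhibtory neurons 14 is included here by its deposited name, which its markers do not bear out. None of the 4 transcripts themselves lay on opposite sides in this way, since in 0 of their 17 tests in other types both mutants were below both controls.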

How the results depend on the processing

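The count of transcripts called higher in bulk RNAseq was 0 with RLE, with the replicate block and with the authors' matrix in limma, 1 (*Lmx1a*) with no filter on low counts and with DESeq2, and between 0 and 1 with each library left out. In DGCs, where it is a description, the 4 were called with RLE, with no filter and with each selection of nuclei, 1 was called with DESeq2, which gave no adjusted p to the other 3, and between 0 and 3 with each library left out: 0 without mutant replicate 1 or mutant replicate 2, 2 without control replicate 1 and 3 without control replicate 2. Selecting nuclei with at least 1500 UMIs removed none. In other cell types the 1 call became 9 with no filter, where 63 pairs were tested, 0 with DESeq2, which gave no adjusted p to 11 of 17, and between 0 and 8 with each library left out. The cause was not tested. The shares in DGCs were higher in both mutants for 3 transcripts (*Lmx1a*, *Gm29683* and *Gm28258*) and, after thinning, for 2 (*Gm29683* and *A730049H05Rik*). The ordering by *Trhr* and *Lct*, taken in replicate 2 of both genotypes only, held for 3 transcripts and for 0 after thinning, which leaves few UMIs. Directions reversed with a library left out for *Gm29683* in CA3 (log2 FC -0.82 to 2.40) and *Gm28258* in inhibtory neurons 5 (-0.025 to 1.23), both lowest without mutant replicate 2, and for *Gm29683* in inhibtory neurons 14 (-0.77 to 0.013), 18 (-1.06 to 0.30) and 5 (-0.57 to 0.19, and 0.064 without control replicate 2). Of 192 values of single genes under alternatives, 144 kept their direction and side of the threshold, 28 newly passed it, 14 no longer passed it and these 6 reversed. The 144 include values to which DESeq2 gave no adjusted p, where only the direction could be compared. Values that passed in the main fit, kept their direction and had no adjusted p in DESeq2 are left out of the 192. With each library left out, a lone library is assumed to vary like the others.

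The libraries of a genotype share replicate numbers, but nothing in the labels says that a number marks a shared litter or day, so no pairing was assumed. In bulk RNAseq the number goes with *Xist* and *Ddx3y*, which set replicate 2 of both genotypes apart from replicate 1, so that the replicate block there also takes up that difference (*Lmx1a* log2 FC 3.85, edgeR FDR 0.0525). With 2 numbers the deviations from the group means correlated by 0.02 in bulk RNAseq, 0.16 in DGCs and 0.36 in CA1. With the replicate block the count of calls was 0 in bulk RNAseq, 4 in DGCs and 7 in other cell types. Over all genes the block also raised the calls in most other types, for example in CA3 from 0 to 196 of 15040 genes called higher. The number of UMIs limits all values of mutant replicate 1.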
